A study of Drosophila melanogaster with 10 samples.

Results

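The aminoacyl-tRNA synthetases of Drosophila melanogaster were followed in SL2 cells after RNA interference (RNAi) against Tip60. They were taken as all probe sets with a single platform gene symbol that joins a three-letter amino acid name, or GluPro, to RS or to RS-m, the suffix of the mitochondrial enzymes. This gave 32 of the 18769 fly probe sets on the array and 30 of 11982 named genes, 16 cytoplasmic and 14 mitochondrial. The compartment was read from the suffix alone, so a gene counted as cytoplasmic may also supply mitochondria. All 32 matched a current gene record by Entrez identifier, and all 32 passed the filter on dim probe sets. AspRS, MetRS and AlaRS-m had no probe set under this rule and were not analysed here. SL2 is a cell line established from fly embryos, with the features of blood cells that engulf particles. Every culture was kept at 26°C, received 10 µg of double-stranded RNA (dsRNA) and was harvested on day 5. The control was dsRNA against eGFP, a jellyfish protein foreign to the fly (4 arrays, replicates 2-1, 2-2, 3-1 and 3-2). The treated cells received dsRNA against positions 1321-1618, 190-807 or 603-1116 of Tip60, with 2 arrays each, so 6 arrays in all, called replicates 1 and 2 here (the second arrays of 190-807 and 603-1116 bear the number 3 in their titles). The dsRNAs 190-807 and 603-1116 overlap by 205 nucleotides. Whether the arrays within a group stem from independent cultures is not in the labels. The p-values therefore refer to the variation among these arrays, part of which may be technical.

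An aminoacyl-tRNA synthetase joins 1 amino acid to its matching tRNA, the step that sets the genetic code in protein synthesis. Cytoplasmic and mitochondrial ribosomes draw on separate tRNA pools. The mitochondrial enzymes are made from nuclear genes and imported. In animals several of the cytoplasmic enzymes sit in the multisynthetase complex with the scaffold proteins AIMP1, AIMP2 and AIMP3, while others act free of it. The enzymes also fall into class I and class II, families with unrelated catalytic folds. Tip60 is the histone acetyltransferase of a chromatin remodelling complex.

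The deposited values are scaled signal intensities, with the same trimmed mean on every array, so every change below is relative to that mean. Bright probe sets weigh most in a mean of linear signals. Centring on the brightest of 4 equal classes of probe sets moved the median log2 change by 0.00022, and centring on the array median by −0.51. The array median itself was 55.4 to 71.8 on the eGFP arrays and 78.0 to 109.5 on the Tip60 RNAi arrays. Tip60 itself went from 1239 ± 103 (SD, n = 4) to 307 ± 71.5 (n = 6), 24.8% of the control mean (two-sided exact permutation p = 0.00476, the smallest that 210 splits allow). Of 8 hemocyte markers 8 rose at an adjusted p under 0.05 by limma, beside 17.8% of all probe sets tested and 24.3% of the brightest class. Their log2 changes ran from 0.44 (srp) to 2.46 (NimC1) under the deposited scaling. Those of srp and vkg (0.45) are smaller than the 0.51 by which centring on the array median lowers every change. The poly-A spike-in scaling described below lowers it by 0.75, more than the rise of any marker but NimC1 and Pxn (1.10). The summed signal of the 8 markers was 131434 to 155020 on the eGFP arrays and 203982 to 255976 on the Tip60 RNAi arrays. The part of these markers in the synthetase results was not tested. Markers of neurons, muscle, fat body and germline summed to at most 1144 on any array for any of these lists. The neuron marker brp rose from 502 to 629 (log2 change 0.31, adjusted p = 0.0421 by limma); its part was not tested either. The markers elav, Lsp2, bam and osk passed the filter without a call, and nSyb, Mlc2, up, Fbp1, Yp1, vas and nanos fell below the filter. Array replicate 1 of dsRNA 190-807 stood apart on the second principal component (57.0, against −15.7 to 3.55 on the others), and without it 10 of the 30 synthetase genes were called lower in place of the 9 below. Errors after ± are SDs over the 4 eGFP arrays and the 6 Tip60 RNAi arrays.

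After Tip60 RNAi a minority of synthetase transcripts gave a moderately lower signal. With each gene read by its brightest probe set, 9 of 30 genes fell and 0 rose at an adjusted p under 0.05 (limma across all 11261 probe sets tested, Benjamini-Hochberg). Over all probe sets tested, 16.7% were called lower and 17.8% higher. The falls were 7 of 16 cytoplasmic genes (IleRS, HisRS, GlnRS, TyrRS, GlyRS, AlaRS and AsnRS) and 2 of 14 mitochondrial genes (SerRS-m and PheRS-m). They ran from −0.49 to −0.21 on the log2 scale, which left 71.8% to 86.7% of the control signal. The counts hold for the deposited scaling. Centring on the array median, on hybridization spike-ins or on poly-A spike-ins, RNAs added in known amounts, lowered every log2 change by 0.51, 0.55 and 0.75, and 28, 25 and 30 of the 30 genes were then called lower, beside 48.5%, 41.9% and 60.1% of all probe sets tested. A smaller amount of RNA per cell and fewer cells that express a gene cannot be told apart in these bulk samples. The call rate depends on brightness, and the members are bright. Of the cytoplasmic genes 15 of 16 lay in the brightest of 4 equal classes of probe sets tested, where 32% of all probe sets were called lower and 24.3% higher; of these 15 genes 6 fell and 0 rose. Of the mitochondrial genes 2 lay in that class, 6 in the third and 6 in the second, counted from the dimmest. In the third class 26.7% of all probe sets were called lower and 15.5% higher, and in the second 7.82% and 22.2%.

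**Figure D1:**
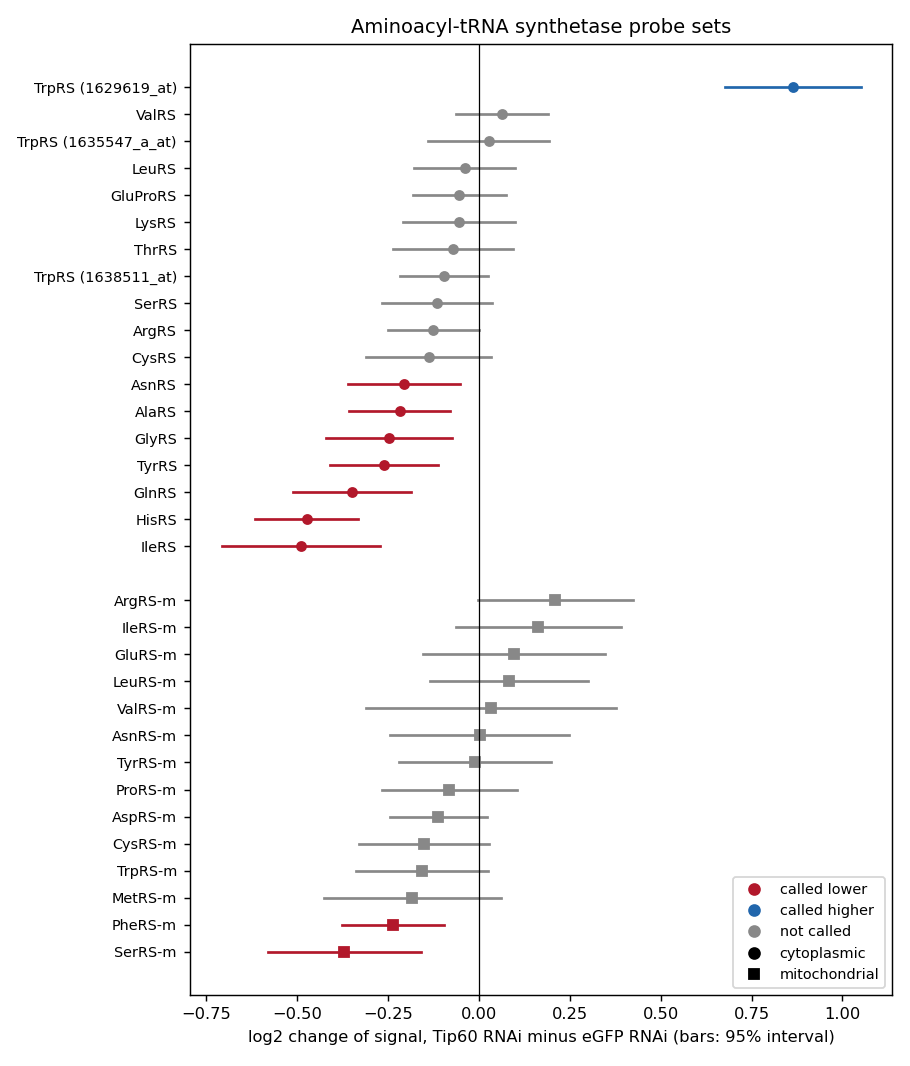
Log2 change of signal (x axis, Tip60 RNAi minus eGFP RNAi) for all 32 synthetase probe sets, with 95% intervals from the limma fit; circles are cytoplasmic and squares mitochondrial, red called lower, blue called higher, grey not called. The 9 red intervals lie below 0, and 1 of the 3 TrpRS probe sets stands alone at 0.86.

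The median log2 change was −0.11 over the 30 genes, −0.13 over the cytoplasmic and −0.05 over the mitochondrial ones, beside 0.08 over all probe sets tested and −0.03 over the brightest class. Of the 30 genes 23 had a negative value. In the 21 genes that were not called, the 95% intervals lay between −0.43 and 0.42, and missing the threshold does not show that they were unchanged. The array noise was low for the bright cytoplasmic genes, with a median coefficient of variation of 5.98% among eGFP arrays and 7.78% among Tip60 RNAi arrays. For the mitochondrial genes it was 6.74% and 9.30%, beside 11.5% and 13.8% over all probe sets tested. In the brightest class the medians were 6.14% and 7.57%, and in the third 7.69% and 9.47%. Low noise was thus shared by bright probe sets and is not particular to the synthetases.

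Among the enzymes of the multisynthetase complex, as it is known from vertebrates, 2 of the 6 measured genes fell. Of all probe sets tested 16.7% were called lower, and of the brightest class, where most of these genes lie, 32%. IleRS, which charges isoleucine, had signals of 7037, 8514, 6995 and 7588 on the eGFP arrays (in the order 2-1, 2-2, 3-1, 3-2). After Tip60 RNAi they were 4619.6 and 5350.4 with dsRNA 1321-1618, 7253 and 5314 with dsRNA 190-807 and 4760.4 and 5146 with dsRNA 603-1116. Replicate 1 of dsRNA 190-807 reached into the control range, and the other 5 arrays lay below every control. The mean went from 7534 ± 707 to 5407 ± 951, a log2 change of −0.49 (SE 0.10, adjusted p = 0.00136 by limma). Without that array the change was −0.58 (adjusted p = 1.2e-05). The IleRS probe set carries the suffix _s_at, which in Affymetrix naming marks probes that can match several transcripts. GlnRS, the glutamine enzyme, gave 2502, 2597, 2476 and 2330.0 on the eGFP arrays and 1793 and 1889 with dsRNA 1321-1618, 2271 and 2067 with dsRNA 190-807 and 1974 and 1719.6 with dsRNA 603-1116. Every Tip60 RNAi array lay below every control, which held for 13.1% of all probe sets tested. Its log2 change was −0.35 (SE 0.08, adjusted p = 0.00197 by limma).

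The other enzymes of the complex did not pass the test. ArgRS had a log2 change of −0.13 (95% interval −0.25 to 0.00, adjusted p = 0.116), LysRS of −0.06 (−0.21 to 0.10) and LeuRS of −0.04 (−0.18 to 0.10). LeuRS gave 3609, 3874, 3668 and 3457 on the eGFP arrays and 3182 (lowest), 3574 (median) and 3928 (highest) on the Tip60 RNAi arrays. GluProRS, a single chain that charges both glutamate and proline, gave 6684, 6545, 6947 and 6589, then 5723 (lowest), 6615 (median) and 6799 (highest), a log2 change of −0.05 (−0.18 to 0.07). The groups overlapped for both. The median of the 6 was −0.09, against −0.17 for the 10 cytoplasmic enzymes that are not part of the complex, of which 5 fell. These counts stand beside 16.7% of all probe sets called lower and 32% of the brightest class. Whether enzymes inside and outside the complex differ was not tested.

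The transcripts of the scaffold proteins AIMP1, AIMP2 and AIMP3, which carry no synthetase symbol, all fell. They were the 3 called lower among 8 measured relatives of the synthetases outside the rule, of which 0 rose. Of all probe sets tested 16.7% were called lower, and of the brightest class 32%. AIMP1 gave 3929, 3708, 3979 and 3746 on the eGFP arrays and 2824 and 3069.8 with dsRNA 1321-1618, 2819 and 2916 with dsRNA 190-807 and 2786 and 2668 with dsRNA 603-1116. AIMP2 gave 5059.8, 5430.0, 5511 and 5395, then 3964 and 4432 with dsRNA 1321-1618, 4345 and 3737 with dsRNA 190-807 and 3728 and 3815 with dsRNA 603-1116. AIMP3 gave 1562, 1787, 1642 and 1657, then 1212 and 969.9 with dsRNA 1321-1618, 1445 and 1230.3 with dsRNA 190-807 and 1212 and 1036 with dsRNA 603-1116. In each of the 3 genes every Tip60 RNAi array lay below every control. This held for 13.1% of all probe sets tested and for 738 of the 2816 in the brightest class. The log2 changes were −0.43 (SE 0.06, adjusted p = 2.17e-05) for AIMP1, −0.42 (SE 0.06, adjusted p = 8.86e-05) for AIMP2 and −0.50 (SE 0.10, adjusted p = 0.000719) for AIMP3. They passed the test whichever of the 10 arrays was removed. The 2 subunits of the cytoplasmic phenylalanine enzyme, alpha-PheRS and beta-PheRS, had −0.20 (adjusted p = 0.0606) and −0.21 (adjusted p = 0.134) and did not pass.

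**Figure D2:**
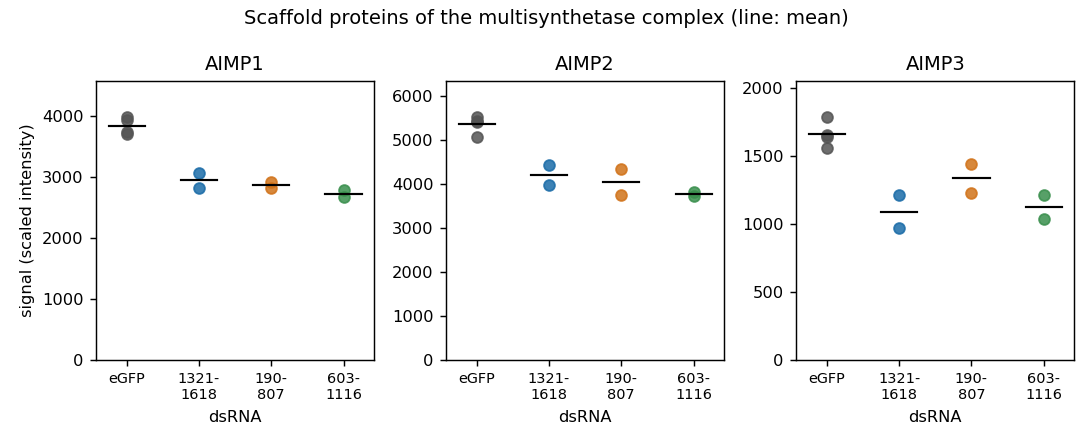
Signal of AIMP1, AIMP2 and AIMP3 (y axis, scaled intensity from 0) on each array by dsRNA (x axis), with a line at each group mean. In each panel the 6 Tip60 RNAi arrays sit below the 4 eGFP arrays.

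Of the cytoplasmic enzymes outside the complex, counted by their brightest probe sets, HisRS had the largest log2 change. HisRS, the histidine enzyme, gave 3589, 3394, 3657 and 3199 on the eGFP arrays and 2575 and 2468 with dsRNA 1321-1618, 2787 and 2409 with dsRNA 190-807 and 2462 and 2255 with dsRNA 603-1116. The groups did not overlap. The mean went from 3459.8 ± 206 to 2493 ± 178, a log2 change of −0.47 (SE 0.07, adjusted p = 4.15e-05 by limma), the smallest p among the synthetase genes called lower.

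TyrRS, the tyrosine enzyme, gave 4143, 4059.9, 4153 and 4651 on the eGFP arrays, and 3241 (lowest), 3507 (median) and 4101 (highest) on the Tip60 RNAi arrays. Its highest Tip60 RNAi array exceeded the lowest control, and the log2 change was −0.26 (SE 0.07, adjusted p = 0.00782 by limma). GlyRS gave 5665, 6327, 6036 and 4948, then 4212 (lowest), 4805 (median) and 5566 (highest). In humans the glycine enzyme of both compartments comes from a single gene. Whether this probe set separates such forms was not tested. HisRS, LysRS and ThrRS also had no mitochondrial counterpart under the rule, and whether they serve both compartments was not tested. Its log2 change was −0.25 (SE 0.08, adjusted p = 0.0271), with overlapping groups.

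AlaRS, the alanine enzyme, gave 6091, 6949, 6339 and 6666 on the eGFP arrays and 5202 (lowest), 5503 (median) and 6428 (highest) on the Tip60 RNAi arrays. AsnRS, the asparagine enzyme, gave 8523, 8303, 8367 and 7102, then 6049 (lowest), 7036 (median) and 7541 (highest). Both sets of groups overlapped, AlaRS through its highest Tip60 RNAi array and AsnRS through its lowest control. The log2 changes were −0.22 (adjusted p = 0.016) and −0.21 (adjusted p = 0.0365). These calls depended on single arrays. AlaRS lost its call without eGFP replicate 2-2 (adjusted p = 0.0625). AsnRS lost it in 6 of 10 fits on 9 arrays, which lacked eGFP replicate 2-1, 2-2 or 3-1, the second array of dsRNA 190-807, or either array of dsRNA 603-1116 (adjusted p 0.0512 to 0.107). GlyRS lost it in 5, which lacked eGFP replicate 2-1, 2-2 or 3-1, or either array of dsRNA 603-1116 (adjusted p 0.0517 to 0.105).

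**Figure D3:**
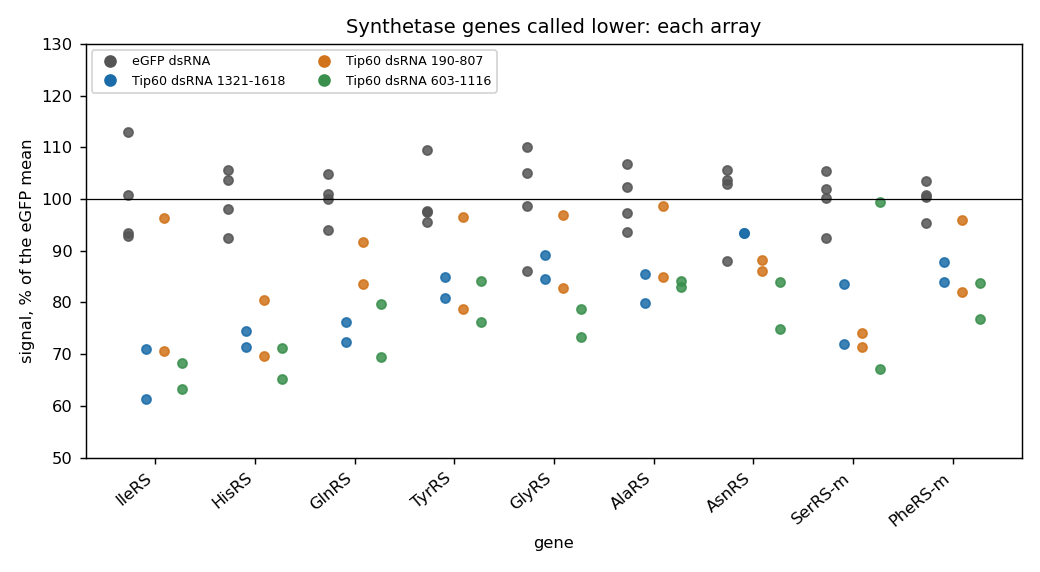
Signal of the 9 synthetase genes called lower on each array, as a percentage of the gene's mean on the eGFP arrays (y axis, starting at 50); grey points are eGFP arrays and coloured points the 3 Tip60 dsRNAs. GlnRS and HisRS have no overlap between the treatments, and for IleRS and AlaRS the highest orange point, replicate 1 of dsRNA 190-807, reaches the controls.

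CysRS, SerRS, ThrRS and ValRS, the enzymes for cysteine, serine, threonine and valine, did not pass the test. Their log2 changes were −0.14 (95% interval −0.31 to 0.03), −0.12 (−0.27 to 0.04), −0.07 (−0.24 to 0.09) and 0.06 (−0.06 to 0.19). ValRS had the only positive value among the 16 cytoplasmic genes as counted by their brightest probe sets, with 4309.9, 4584, 4519 and 4151 on the eGFP arrays and 4248 (lowest), 4559 (median) and 5019 (highest) on the Tip60 RNAi arrays. ThrRS and ValRS were also read by _s_at probe sets. By catalytic family, 3 of 8 class I and 4 of 7 class II cytoplasmic genes fell, with GluProRS, which holds a domain of each, counted in neither. Of all probe sets tested 16.7% were called lower, and of the brightest class 32%. The class II calls include AlaRS, GlyRS and AsnRS, which depended on single arrays. Whether the families differ was not tested.

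TrpRS, the tryptophan enzyme, was the gene with more than 1 probe set, and its 3 probe sets disagreed. Probe set 1629619_at had signals of 512, 489, 552 and 499 on the eGFP arrays. After Tip60 RNAi it had 816 and 1038 with dsRNA 1321-1618, 971 and 957 with dsRNA 190-807 and 909 and 918 with dsRNA 603-1116. Every Tip60 RNAi array lay above every control, which held for 12.4% of all probe sets tested. The mean went from 513 ± 27.6 to 935 ± 74.4, a log2 change of 0.86 (SE 0.09, adjusted p = 1.47e-06 by limma). It was the only synthetase probe set called higher as deposited, and the call was lost with both spike-in scalings (0.32, adjusted p = 0.227, and 0.11, adjusted p = 0.614).

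The brighter TrpRS probe sets did not pass the test. Probe set 1638511_at, by which the gene is counted here, gave 8179, 8020.4, 7648 and 7711 on the eGFP arrays and 6878 (lowest), 7359 (median) and 8022 (highest) on the Tip60 RNAi arrays, a log2 change of −0.10 (95% interval −0.22 to 0.02, adjusted p = 0.209). Probe set 1635547_a_at gave 4755, 6008, 6284 and 5174, then 5215 (lowest), 5644 (median) and 6149.8 (highest), a log2 change of 0.03 (−0.14 to 0.19, adjusted p = 0.825). The log2 ratio of 1629619_at to 1638511_at within each array is not altered by multiplying the array by a constant. On the eGFP arrays it ran from −4.03 to −3.79, and after Tip60 RNAi from −3.30 to −2.81, a difference of 0.96 (two-sided exact permutation p = 0.00476, adjusted over 3 ratios 0.00714). The ratio of 1629619_at to 1635547_a_at rose by 0.84 (exact p = 0.00476, adjusted 0.00714), and that of 1635547_a_at to 1638511_at differed by 0.12 (exact p = 0.324, adjusted 0.324). These ratios were chosen after the values were seen. Where the probes of each set lie in the TrpRS transcripts was not analysed here, nor was binding to another transcript.

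**Figure D4:**
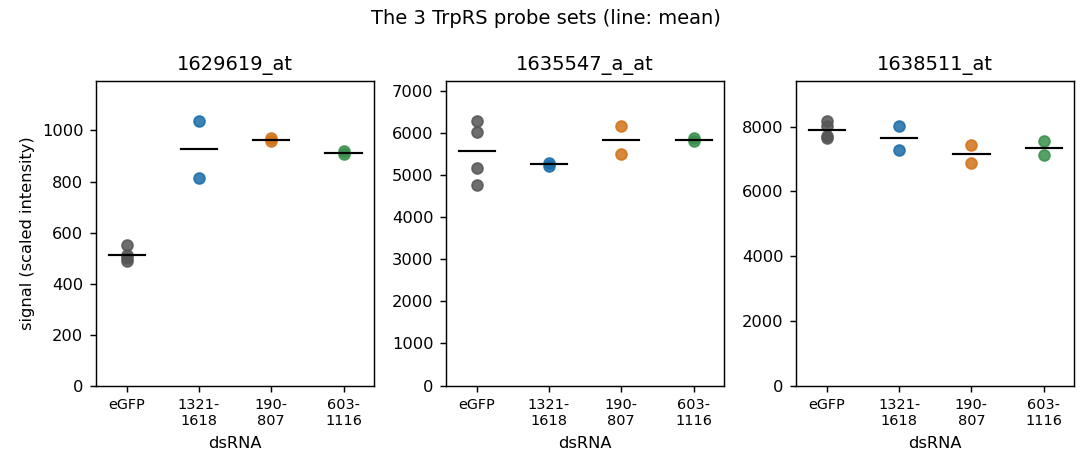
Signal of the 3 TrpRS probe sets (y axes, scaled intensity from 0, each with its own range) on each array by dsRNA (x axis), with a line at each group mean. In the first panel all 6 Tip60 RNAi arrays lie above the 4 controls (816 to 1038 against 489 to 552), and in the other panels the groups overlap.

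Of the 14 mitochondrial enzymes 2 fell and 0 rose. SerRS-m, which charges serine in mitochondria, gave 1351, 1398, 1328 and 1226 on the eGFP arrays and 955 and 1108 with dsRNA 1321-1618, 984 and 946 with dsRNA 190-807 and 891 and 1318 with dsRNA 603-1116. Replicate 2 of dsRNA 603-1116 lay within the control range, and the other 5 arrays lay below it. The log2 change was −0.37 (SE 0.10, adjusted p = 0.00836 by limma). Slimp, an insect paralog of SerRS-m known in Drosophila as its partner protein, had −0.04 (adjusted p = 0.812).

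PheRS-m, the mitochondrial phenylalanine enzyme, gave 2548, 2419, 2624 and 2558 on the eGFP arrays and 1947 (lowest), 2127 (median) and 2435 (highest) on the Tip60 RNAi arrays. The groups overlapped by the highest Tip60 RNAi array, and the log2 change was −0.24 (SE 0.07, adjusted p = 0.0112). MetRS-m, for methionine, gave 458, 481, 412 and 434, then 342 (lowest), 390.0 (median) and 465 (highest) (−0.18, 95% interval −0.43 to 0.06, adjusted p = 0.241). It did not pass as deposited, but passed after quantile normalization (MetRS-m −0.32, adjusted p = 0.0431) and with cyclic loess (−0.31, adjusted p = 0.0451).

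The most positive mitochondrial values were those of ArgRS-m, IleRS-m and GluRS-m, and none passed the test. ArgRS-m gave 606, 646, 610.2 and 548 on the eGFP arrays and 609 (lowest), 695 (median) and 848 (highest) on the Tip60 RNAi arrays, a log2 change of 0.21 (95% interval −0.00 to 0.42, adjusted p = 0.122). IleRS-m gave 475, 429, 486 and 441, then 439 (lowest), 526 (median) and 566 (highest) (0.16, −0.06 to 0.39). GluRS-m gave 459, 607, 419 and 455, then 447 (lowest), 512 (median) and 566 (highest) (0.10, −0.15 to 0.35). The groups overlapped in each of them. GluRS-m is the neighbour of TyrRS in the gene order of the RefSeq table, and the 2 genes had 0.10 and −0.26.

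The remaining 8 mitochondrial genes, for leucine, valine, asparagine, tyrosine, proline, aspartate, cysteine and tryptophan, lay between −0.16 (TrpRS-m, −0.34 to 0.02) and 0.08 (LeuRS-m, −0.13 to 0.30). ValRS-m had the widest interval (−0.31 to 0.38). By catalytic family, 0 of 9 class I and 2 of 5 class II mitochondrial genes fell, beside 16.7% of all probe sets tested. The share called lower was 7.82% in the second brightness class, 26.7% in the third (that of SerRS-m) and 32% in the brightest (that of PheRS-m). Whether the families differ was not tested. GatA and GatB, subunits of the amidotransferase that makes mitochondrial glutaminyl-tRNA from glutamyl-tRNA, had −0.13 (adjusted p = 0.347) and −0.04 (adjusted p = 0.797).

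Both compartments were measured for 9 amino acids. In 3 of them, isoleucine, tyrosine and asparagine, the cytoplasmic enzyme fell and the mitochondrial one did not pass the test. In serine it was the mitochondrial enzyme that fell, in 5 neither did, and in 0 did both. IleRS and IleRS-m lay farthest apart (−0.49 and 0.16), and CysRS and CysRS-m closest (−0.14 and −0.15). The difference of the log2 changes, cytoplasmic minus mitochondrial, had a median of −0.12 over the 9 pairs and ran from −0.65 to 0.26. A call in 1 enzyme of a pair and not in the other does not show that they differ, and the difference of single pairs was not tested.

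**Figure D5:**
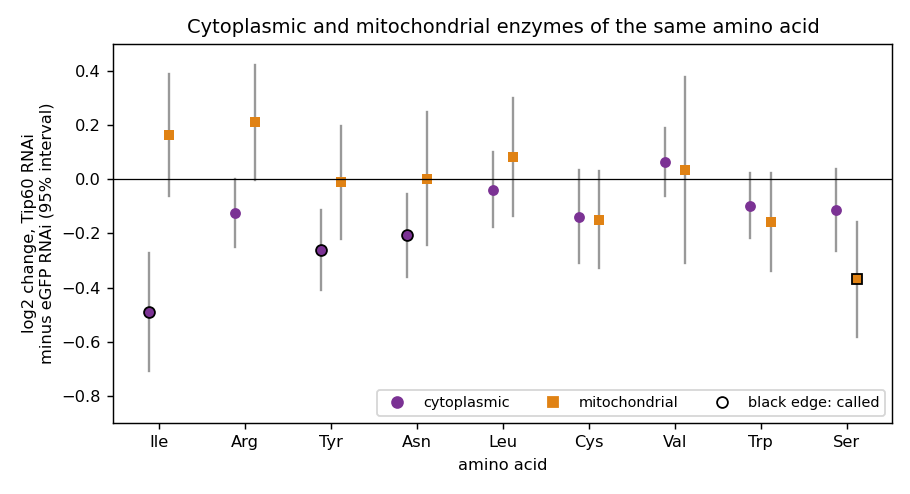
Log2 change (y axis, Tip60 RNAi minus eGFP RNAi, with 95% intervals) of the cytoplasmic enzyme (circle) and the mitochondrial enzyme (square) of the same amino acid (x axis), ordered by their difference; a black edge marks a called fall. No amino acid has both enzymes called.

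Array by array, the median deviation of the cytoplasmic genes from their eGFP mean was −0.25 to −0.03 on the Tip60 RNAi arrays, and that of the mitochondrial genes −0.11 to 0.03. The cytoplasmic median was the lower one on 5 of 6 arrays, and replicate 1 of dsRNA 190-807 was the exception (−0.03 against −0.06). On the eGFP arrays the cytoplasmic medians ran from −0.05 to 0.05 and the mitochondrial ones from −0.09 to 0.10. The difference between the compartment medians was −0.09 as deposited and moved with single arrays and with the normalization. It was −0.02 without eGFP replicate 3-2 and −0.14 without eGFP replicate 2-2. It was −0.02 after cyclic loess and −0.00043 after quantile normalization, where both medians came to −0.09. Scaling each array by a constant shifts both medians alike and cannot move their difference, so its value of −0.09 there is no further support. The mitochondrial genes were dimmer than the cytoplasmic ones, and among them the 6 in the second brightness class had a median of 0.06, the 6 in the third −0.12 and the 2 in the brightest −0.17. Over all probe sets tested those classes had medians of 0.16, −0.06 and −0.03.

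The 3 dsRNAs, each against the same 4 eGFP arrays, gave different numbers of calls. With dsRNA 1321-1618 5 of 30 genes fell (12.6% of all probe sets tested were called lower), with dsRNA 190-807 2 (11.3%) and with dsRNA 603-1116 9 (13.7%). None gave a rise in a counted probe set, beside 11.1%, 10.9% and 13.5% of all probe sets called higher. The 3 comparisons share their controls. HisRS was called with each of them, at −0.45, −0.42 and −0.55. IleRS was at −0.60, −0.27 and −0.60, and without call for dsRNA 190-807 (adjusted p = 0.115). The TrpRS probe set 1629619_at was higher with each, by 0.84, 0.91 and 0.83. CysRS was called only with dsRNA 603-1116 (−0.30, adjusted p = 0.0138), beside −0.16 and 0.05.

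Tested for differences between the 3 dsRNAs with a limma F-test, 0 of the 30 genes passed after adjustment and 3 had an unadjusted p under 0.05 (CysRS, ThrRS and IleRS). The F-test called 4 of 11261 probe sets in all (0.0355%), so the different counts are not shown to be a difference between the reagents. Of the 30 genes 18 had a negative log2 change with each dsRNA and 3 a positive one. The counts moved with single arrays. For dsRNA 1321-1618 the 5 calls became 3 without eGFP replicate 2-2 or either of its own arrays. For dsRNA 190-807 the 2 became 1 without eGFP replicate 2-2 and 0 without its own replicate 2. For dsRNA 603-1116 the 9 became 4 without its own replicate 1. A group left with 1 array is assumed to vary like the others.

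Other genes on the path from amino acid to protein gave a mixed picture. The counts of each list stand beside 16.7% lower and 17.8% higher over all probe sets tested. In the brightest class the shares were 32% and 24.3%. Whether a list differs from these shares was not tested. Of 6 measured elongation and release factors of the cytoplasm 1 fell and 0 rose (median 0.10). The fall was that of eEF1delta, part of the exchange factor of the elongation factor that carries charged tRNA to the ribosome (15977 ± 933 to 13189.5 ± 752, log2 change −0.28, adjusted p = 0.0027 by limma). Of 9 mitochondrial translation factors 2 fell and 1 rose (median −0.02). The elongation factor gene mEFTu1 and its exchange factor gene mEFTs fell by 0.37 and 0.40 on the log2 scale, and the ribosome recycling factor gene mRRF1 rose by 0.47 (adjusted p = 0.0196). Quantile normalization (0.27, adjusted p = 0.145) and cyclic loess (0.32, adjusted p = 0.0908) each removed the call of mRRF1, which also failed without eGFP replicate 2-1 or 3-1 (adjusted p up to 0.0851). Under the median and spike-in scalings its value was negative (−0.28 at the lowest).

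Among 9 measured genes of the integrated stress response, which senses uncharged tRNA through the kinase Gcn2, 4 fell and 1 rose (median −0.06). Gcn2 had −0.06 (adjusted p = 0.507) and crc, the fly homolog of the transcription factor ATF4, 0.06 (adjusted p = 0.538); neither passed. Nmdmc, an enzyme of mitochondrial folate metabolism, went from 3547 ± 101 to 2184 ± 141 (log2 change −0.70, adjusted p = 3.31e-07). AsnS, which makes the asparagine that AsnRS uses, went from 2011 ± 96.5 to 1476 ± 156 (−0.45, adjusted p = 0.00039). The pseudokinase gene trbl rose from 1286 ± 57 to 1836 ± 239 (0.50, adjusted p = 0.00044), and its value was negative under the median and spike-in scalings (−0.25 at the lowest).

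Of 6 amino acid transporter genes 2 fell and 3 rose (median 0.36). The brightest of the rises was that of path, from 10137 ± 1010 to 14840 ± 1822 (log2 change 0.55, adjusted p = 0.000238 by limma), with overlapping groups. Beside this rise, the median and spike-in scalings lower every log2 change by 0.51, 0.55 and 0.75. The call of path was not checked under the alternatives. JhI-21 and mnd, light subunits of amino acid exchangers, had −0.33 and −0.25 (adjusted p = 0.000637 and 0.0106), and mnd did not pass without dsRNA 1321-1618 (−0.18, adjusted p = 0.0507). The rises of sbm (1.90) and slif (1.28) started from means of 39.2 and 34.6, near the filter signal of 34.5, and neither call held under quantile normalization (adjusted p = 0.110 for sbm and 0.286 for slif). The call of slif held on removal of eGFP replicate 3-1 or the first array of dsRNA 1321-1618 or 603-1116, and on removal of any of the other 7 arrays it did not (adjusted p up to 0.109). Of 7 genes of tRNA processing and modification 3 fell and 0 rose (median −0.22). The tRNA methyltransferase gene Nsun2 went from 1201 ± 155 to 802 ± 83.4 (−0.58, adjusted p = 0.00032) and Tgt, whose product puts queuine into tRNA, had −0.33 (adjusted p = 0.0268). Tgt did not pass when eGFP replicate 2-1 or 2-2, the second array of dsRNA 190-807 or either array of dsRNA 603-1116 was removed (adjusted p up to 0.0834).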

How the data were processed

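Total RNA of SL2 cells was labelled with biotin and measured on 10 Affymetrix arrays, 1 per sample, with no depth and 4 and 6 arrays per treatment to limit the precision. The authors deposited linear signal intensities, 1 per probe set, made with GCOS 1.4 per the submitters' processing notes. For background correction, probe summary and genome build: not given in the sources used here. Their 2% trimmed mean over all 18952 probe sets was 1000 on each array. Log2 intensities were used without further normalization. The 183 Affymetrix controls were left out, as were fly probe sets under the 40th percentile of mean log2 signal (34.5), which left 11261. Names came from the platform annotation, updated by Entrez identifier through the RefSeq table of Release 6 plus ISO1 MT (13544 of 13647 single symbols matched); no coordinates are given. limma 3.58.1 in R 4.3.3 (eBayes with an intensity trend) compared 6 with 4 arrays, and 4 group means gave each dsRNA and the F-test. The fit was tested on simulated data, with 50 probe sets changed at each size. It recovered 14% at a log2 change of 0.25, 50% at 0.5, 56% at 1 and 84% at 2, with 4 false calls among 106. The changed probe sets were drawn at every brightness, so these shares are not those of the bright synthetase genes. The simulation also gave 106 calls among 11261 probe sets, where the data gave 3885. With fewer calls the Benjamini-Hochberg adjustment asks for a smaller p, so the simulated threshold was stricter than that of the data. The synthetase rule and the gene lists were chosen with earlier results of these data known. Named genes were each synthetase probe set and, from each list, up to 2 called genes that rose most and 2 that fell most. AIMP2, path and the genes given without a call were named beyond that rule. Of the hemocyte, neuron and other marker lists the counts or levels are given. The grouping by complex and catalytic class is textbook knowledge. Alternatives were 6 other scalings, 2 filters, an offset of 16, array weights, eBayes without trend, a random block for array pairs, averages of those pairs, the number in the array titles as a block, and fits without each dsRNA or array.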

Additional observations from a re-analysis of the deposited data

Results flagged for a closer look

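In 6 of 64 sets of arrays (32 probe sets in each of 2 treatments) 1 array stood far from the rest by Dixon's criterion, which chance alone meets in about 1 of 20 sets. Replicate 1 of dsRNA 190-807 was the highest Tip60 RNAi array in 3 of them: AlaRS at 6428 against 5573 on the next array, IleRS at 7253 against 5350.4, and CysRS-m at 1102 against 923. It is the array that stood apart on the second principal component. Without it 10 of the 30 genes fell in place of 9. Among eGFP arrays, replicate 3-2 was lowest for AsnRS (7102, next 8303) and highest for TyrRS (4651, next 4153), and replicate 2-2 was highest for CysRS-m (1110.1, next 1002).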

How the results depend on the processing

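Of the 9 falls, those of GlnRS, HisRS, IleRS and TyrRS kept their call under each alternative tried, and all 9 kept it under the scalings by quantiles, by cyclic loess and by the brightest class. Apart from the block on title numbers below, SerRS-m kept it too. PheRS-m lost its call without dsRNA 603-1116 (adjusted p = 0.0563) and AlaRS without dsRNA 1321-1618 (0.0583) or 603-1116 (0.0701). GlyRS lost it without the intensity trend (0.0783) and without dsRNA 603-1116 (0.141). AsnRS lost it without a filter (0.0529), without the trend (0.0844), with pairs of arrays averaged (0.0688) and without dsRNA 190-807 (0.0542) or 603-1116 (0.165). Without dsRNA 603-1116 5 genes were called lower, 4 cytoplasmic and 1 mitochondrial. Counting all probe sets added 1 call higher, the TrpRS probe set 1629619_at.

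A further 3 scalings lower every log2 change by 1 constant, which fixes the direction of their effect: centring on the median (0.51), hybridization spike-ins (0.55) and poly-A spike-ins (0.75). Falls then numbered 28, 25 and 30 in all, 16, 16 and 16 cytoplasmic and 12, 9 and 14 mitochondrial. The cytoplasmic median became −0.64, −0.68 and −0.88 and the mitochondrial −0.55, −0.59 and −0.80. Called falls replaced positive values for TrpRS 1635547_a_at (−0.48, −0.52 and −0.72), ValRS (−0.44, −0.48 and −0.69) and AsnRS-m (−0.50, −0.55 and −0.75). They did so by the median and the poly-A spike-ins for GluRS-m (−0.41 and −0.65), LeuRS-m (−0.42 and −0.67) and ValRS-m (−0.47 and −0.72), and by the poly-A spike-ins for ArgRS-m (−0.54) and IleRS-m (−0.59). The rises of mRRF1 (−0.038, −0.080 and −0.28) and trbl (−0.00072, −0.043 and −0.25) turned negative without a call. The rise of TrpRS 1629619_at stayed positive, and its call was lost with both spike-in scalings (0.32 and 0.11; adjusted p = 0.227 and 0.614).

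Leaving out 1 array gave 6 to 10 falls in all, 4 to 7 cytoplasmic (4 without eGFP replicate 2-2) and a mitochondrial median of −0.12 to −0.014 (−0.12 without eGFP replicate 3-2). By dsRNA the falls were 3 to 6 (1321-1618), 0 to 3 (190-807) and 4 to 10 (603-1116), and the rises 0 to 1 (190-807); these fits were chosen after seeing the data. The number in the array titles (2 or 3 for eGFP, 1 to 3 for Tip60 RNAi) as a replicate block, also chosen after seeing the data, gave 4 falls in all, 4 cytoplasmic and 0 mitochondrial, beside 1411 lower and 1374 higher of all probe sets in place of 1883 and 2002. The falls called were those of GlnRS, HisRS, IleRS and TyrRS, with SerRS-m at −0.24 (adjusted p = 0.137) and PheRS-m at −0.24 (0.0535). The labels do not say what the number marks. Number 1 holds Tip60 RNAi arrays alone, so its 3 arrays add nothing to the blocked estimate of the treatment difference. Deviations of eGFP and Tip60 RNAi arrays with the same number correlated at 0.037 (number 2) and 0.0019 (number 3) across probe sets. The eGFP deviations of the 2 numbers are mirror images, and number 2 holds 1 Tip60 RNAi array. These correlations therefore cannot decide whether the number marks a shared experiment.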
